A study of Homo sapiens with 12 samples.

Results

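The genes described here are the 10 NF-κB subunits and IκB proteins NFKB1, NFKB2, REL, RELA, RELB, BCL3, NFKBIA, NFKBIB, NFKBIE and NFKBIZ. They were taken by symbol from the 42157 genes of a count table, and all 10 passed the filter on low counts that left 13696 genes to test. The table holds polyadenylated RNA from HL-60, an established human line of promyelocytic acute myeloid leukemia cells, in 12 libraries from 4 groups of 3 replicates. All groups were harvested after 3 h. They had received vehicle (DMSO, dimethyl sulfoxide), the anthracycline daunorubicin (DNR) at 1 µM, the SUMO-activating enzyme inhibitor ML-792 at 0.5 µM, or these same doses of the drugs combined (ML-792+DNR). Anthracyclines bind between DNA base pairs and cause breaks through topoisomerase II, while blocking the SUMO-activating enzyme stops new attachment of the small protein SUMO to its targets. The replicates were independent experiments according to the study's methods, and every group is the same single line. Levels are given in CPM, counts scaled by TMM to 1 M (mega) reads of the tested genes.

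NF-κB transcription factors are dimers of 5 subunits that share a Rel homology domain. RELA, REL and RELB carry a transactivation domain, whereas NFKB1 and NFKB2 encode the precursors p105 and p100, which are processed to the DNA-binding subunits p50 and p52. In resting cells the dimers are held mostly in the cytoplasm by the inhibitors IκBα (NFKBIA), IκBβ (NFKBIB) and IκBε (NFKBIE), and also by the precursors themselves. Phosphorylation by the IKK kinases marks these inhibitors for degradation and frees the dimers, in the canonical pathway, while the non-canonical pathway processes p100 and frees dimers of RELB and p52. BCL3 and IκBζ (NFKBIZ) are atypical, nuclear IκB proteins that act as cofactors of NF-κB on DNA. Several of these genes are themselves classical NF-κB targets, which makes the pathway feed back on itself, and DNA breaks can activate the pathway through ATM and the IKK subunit NEMO.

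The promoters of the members are shown because the family is read here through its own transcripts. RefSeq promoter windows on GRCh38.p14, 250 bases before to 50 bases after an annotated start, were given for 8 of the 10 members (14 windows; not RELB and NFKBIE). The κB consensus, searched on both strands with overlapping matches taken as 1 site, was found in 9 of these windows, which belong to 7 members, and RELA was the member with windows but no match. Of all 35116 windows of the same length, 5.91% held a match. The sites are written 5′ to 3′ on the gene's strand with up to 10 bases on either side, and capitals mark the match. A match is a description of letters and not evidence of binding.
NFKB1, start 1, 49 bases before the start: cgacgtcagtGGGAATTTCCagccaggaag
NFKB2, start 2, 107 bases before the start: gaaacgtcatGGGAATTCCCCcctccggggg
NFKB2, start 2, 78 bases before the start: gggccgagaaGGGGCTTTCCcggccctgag
NFKB2, start 3, 176 bases before the start: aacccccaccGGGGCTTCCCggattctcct
NFKB2, start 3, 21 bases before the start: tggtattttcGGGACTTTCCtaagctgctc
REL, start 1, 47 bases before the start: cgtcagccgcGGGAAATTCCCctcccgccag
NFKBIA, start 1, 81 bases before the start: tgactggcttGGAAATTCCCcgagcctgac
NFKBIB, start 2, 28 bases before the start: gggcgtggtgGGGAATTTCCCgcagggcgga
BCL3, start 1, 2 bases after the start: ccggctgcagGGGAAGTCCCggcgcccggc
NFKBIZ, start 1, 223 bases before the start: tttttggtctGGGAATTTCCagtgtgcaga
NFKBIZ, start 2, 239 bases before the start: gcgcgctgtcGGGGTTTCCCggtgaagggc

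NFKB2 held the most sites, 4 over 2 of its 3 starts. Its second window, chr10:102394328-102394627 on the plus strand of GRCh38.p14, holds a pair of them and is printed whole, again with the matches in capitals.
NFKB2, start 2: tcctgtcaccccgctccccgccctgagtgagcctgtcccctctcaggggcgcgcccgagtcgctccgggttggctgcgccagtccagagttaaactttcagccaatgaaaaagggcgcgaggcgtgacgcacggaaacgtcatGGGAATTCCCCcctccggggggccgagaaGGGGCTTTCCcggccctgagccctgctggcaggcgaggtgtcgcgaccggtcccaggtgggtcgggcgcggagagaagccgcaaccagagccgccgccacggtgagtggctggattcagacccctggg

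**Figure D1:**
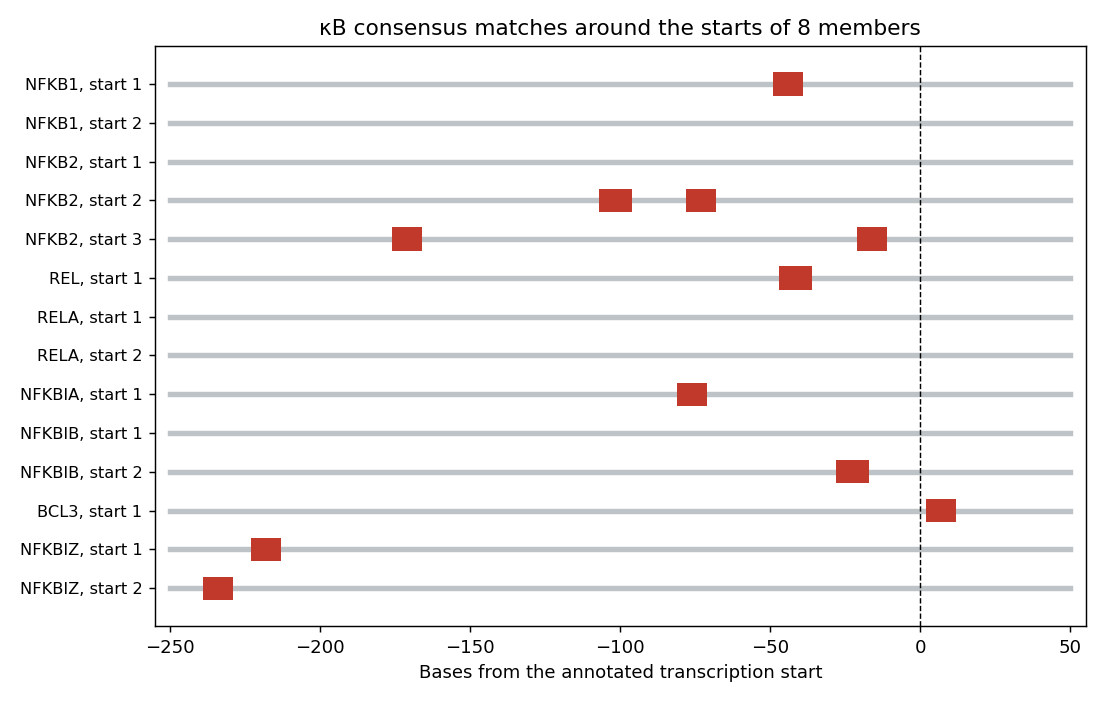
Position of each κB consensus match (red) in the 14 windows of 8 members, in bases from the annotated start (0, dashed line), with 1 grey line per start. NFKB2 has 4 sites over starts 2 and 3, NFKBIZ 1 at each of its starts, and neither RELA window has one.

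On GRCh37, the build of the counts, the subunit genes lie at chr4:103422487-103538459 (NFKB1), chr10:104153867-104162281 (NFKB2), chr2:61108626-61158747 (REL), chr11:65421070-65430561 (RELA, minus strand) and chr19:45504719-45541450 (RELB). The IκB genes lie at chr14:35870285-35873955 (NFKBIA, minus strand), chr19:39390340-39399533 (NFKBIB), chr6:44225903-44233525 (NFKBIE, minus strand), chr19:45250962-45263301 (BCL3) and chr3:101546835-101579866 (NFKBIZ). RELA shares 103 exonic bases with RELA-DT and NFKBIB 40 with SIRT2, both on the opposite strand. NFKBIZ shares 194 exonic bases with NXPE3, and REL 5702 with a long noncoding RNA, both on the same strand. The counts of these 4 members can therefore hold reads of a neighbour or lack reads left out as ambiguous.

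The libraries held 28.6 to 46.5 M reads in genes. All 10 markers of promyelocytic cells averaged at least 1 CPM, led by the myeloperoxidase gene MPO. Of the lymphocyte markers NKG7 alone passed 1 CPM, CD3E and MS4A1 being at 0, and of the stromal and epithelial markers 1 of 7 did, COL1A2, EPCAM and DCN being at 0. None of the 7 erythroid and 6 monocyte and macrophage markers reached 1 CPM, and the 4 globin genes HBA1, HBA2, HBB and HBG1, C1QB and MARCO were at 0. Mitochondrially encoded transcripts took 4.01% to 6.37% of reads in the replicate 1 libraries and 2.49% to 3.48% in the others. In bulk RNA, fewer cells with a transcript and less transcript per cell cannot be told apart.

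In vehicle-treated cells the members ranged from well expressed to nearly absent. Per length, as CPM per kilobase of exon (RPKM), NFKBIB had 9.55 ± 0.886 (SD, n = 3) and RELA 8.04 ± 0.163, followed by NFKBIE at 6.92 ± 0.301. NFKBIA at 4.65 ± 0.437 and NFKB1 at 4.21 ± 0.547 came next and lay within each other's spread. REL at 1.48 ± 0.0188 and RELB at 1.34 ± 0.285 also overlapped, and NFKB2 stood at 0.861 ± 0.0982. NFKBIZ had 0.519 ± 0.0486, and BCL3 had 1 read in the 3 libraries together. Per length of the longest transcript in place of all exons, RELA came first and was followed by NFKBIB and NFKB1, and the 5 least abundant members kept their order.

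DNR changed nearly the whole family, and upwards. In all, 7 members rose at least 2-fold at an edgeR adjusted p below 0.05: NFKB2, RELB and REL among the subunits, NFKBIA and NFKBIE among the classical inhibitors, and both nuclear IκB genes, BCL3 and NFKBIZ. At that p with no minimum fold 9 of 10 rose (NFKB1 and NFKBIB being the others), and RELA alone did not. Over all tested genes 4.07% were higher at 2-fold and 14.3% at any fold, and 2.91% were lower at 2-fold. The median log2 change of the members was 1.85 beside 0.00988 for all genes tested. BCL3, with 1 read in the DMSO libraries and 7 with ML-792, passed the filter only through the DNR-treated groups. The counts and medians given here and for ML-792+DNR thus include a member kept because it was high there.

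**Figure D2:**
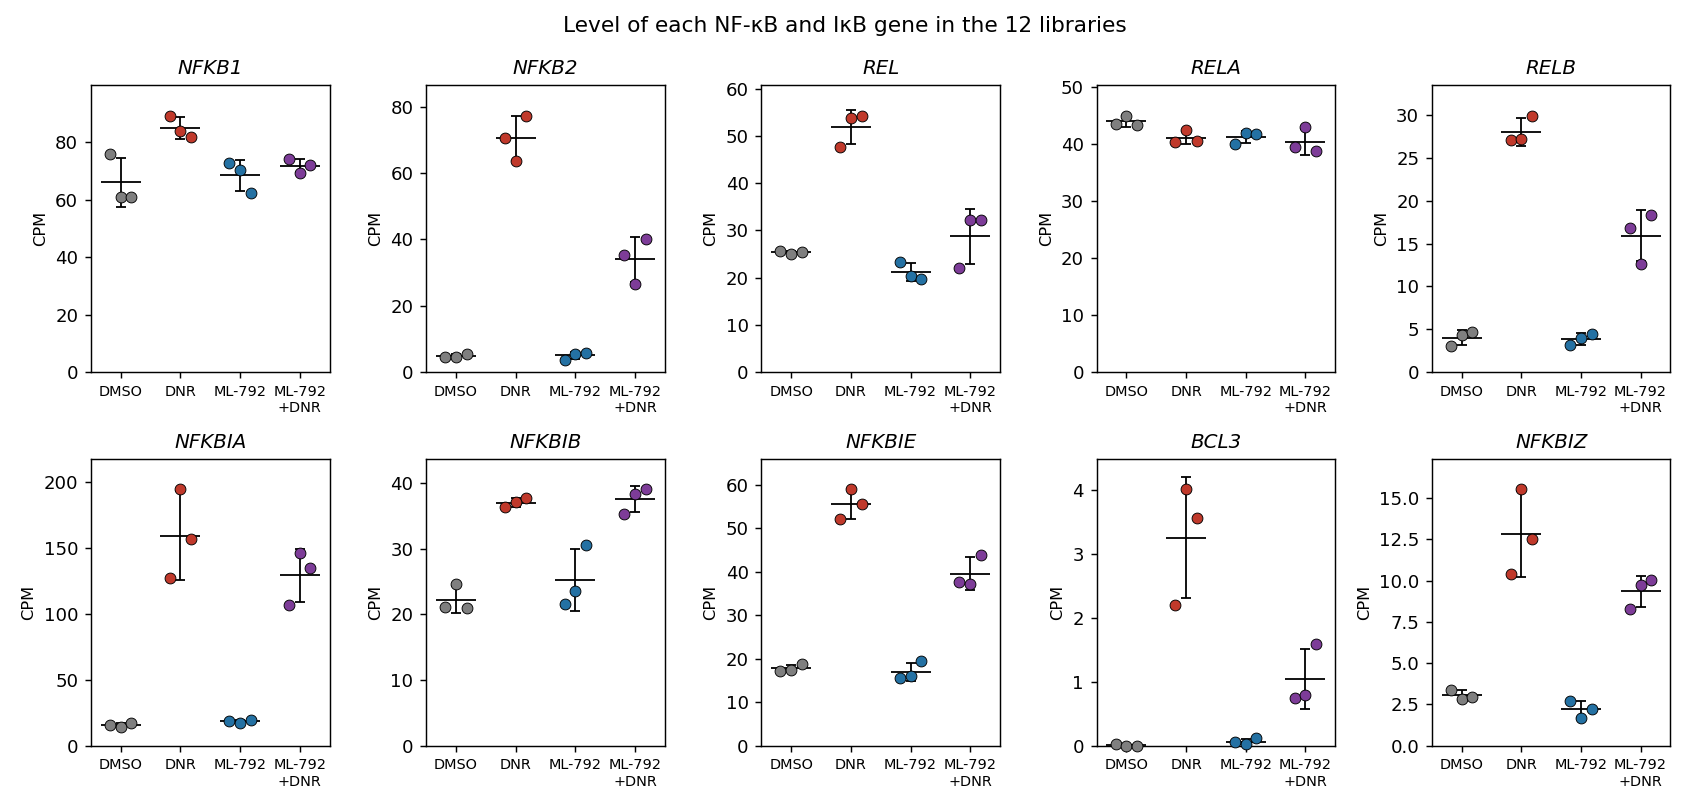
CPM of each member in each library (points; replicates 1 to 3 from left to right in each group) with the group mean and SD (bar and whiskers), on linear axes that start at 0. DNR libraries stand apart from DMSO for NFKB2, RELB, NFKBIA, NFKBIE and BCL3, the ML-792+DNR libraries lie between them for NFKB2, RELB and BCL3, and RELA stays between 38.7 and 44.9 CPM in all 12.

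Among the subunits, NFKB2, the p100/p52 precursor, had 4.40, 4.58 and 5.43 CPM with DMSO and 70.5, 63.7 and 77.3 CPM with DNR. The lowest DNR library was thus more than 10 times the highest DMSO library, and the log2 fold change was 3.87 ± 0.186 (SE; edgeR adjusted p = 2.13e-08). RELB, its main partner in the non-canonical pathway, had 3.04, 4.36 and 4.64 CPM with DMSO and 27.1, 27.2 and 30.0 CPM with DNR. Those groups were also far apart, at a log2 change of 2.81 ± 0.188 (edgeR adjusted p = 4.86e-07).

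REL encodes c-Rel, the subunit most tied to blood cells. It went from 25.6, 25.0 and 25.5 CPM with DMSO to 47.6, 53.7 and 54.3 CPM with DNR, a log2 change of 1.03 ± 0.13 (edgeR adjusted p = 7.19e-05). The estimate sits close to the 2-fold limit, with a 95% interval of 1.69- to 2.48-fold. NFKB1, the p105/p50 precursor, rose from 75.8, 61.0 and 61.0 CPM to 89.2, 83.7 and 81.6 CPM, a log2 change of 0.36 ± 0.0941 (edgeR adjusted p = 0.0108). This smaller rise missed an adjusted p of 0.05 without DMSO replicate 2 or without DMSO replicate 3, where it reached 0.0605 at most. RELA, which encodes p65, had 43.5, 44.9 and 43.3 CPM with DMSO and 40.3, 42.4 and 40.4 CPM with DNR. Its log2 change was −0.10 ± 0.0725 (edgeR adjusted p = 0.351), with a 95% interval of 0.84- to 1.04-fold, so that a rise of the size seen for the other subunits lies outside it.

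Among the inhibitors that hold NF-κB in the cytoplasm, NFKBIA moved most. It had 16.1, 14.1 and 17.1 CPM with DMSO and 127.2, 194.4 and 156.6 CPM with DNR, a log2 change of 3.34 ± 0.158 (edgeR adjusted p = 2.13e-08). The DNR libraries were spread, replicate 1 being the lowest, but none came near the DMSO range. NFKBIE rose from 17.3, 17.5 and 18.7 CPM to 52.1, 58.9 and 55.5 CPM, a log2 change of 1.64 ± 0.105 (edgeR adjusted p = 3.59e-07). NFKBIB rose from 21.1, 24.6 and 20.9 CPM to 36.3, 37.0 and 37.7 CPM, a log2 change of 0.74 ± 0.119 (edgeR adjusted p = 0.000486). Its 95% interval of 1.4- to 1.99-fold ends just under 2-fold.

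Of the nuclear IκB genes, BCL3 was close to silent before treatment: DMSO libraries held 1, 0 and 0 reads and DNR libraries 76, 129 and 114. Scaled for library size, the summed counts differed 380-fold, with a 95% counting interval of 67.7 to 15000 that the single DMSO read makes wide (edgeR adjusted p = 1.53e-06). The level reached with DNR, 3.25 ± 0.943 CPM, was still the lowest of the family. NFKBIZ rose from 3.39, 2.85 and 2.96 CPM to 10.4, 15.5 and 12.5 CPM, a log2 change of 2.06 ± 0.191 (edgeR adjusted p = 6.37e-06). The 7 calls with DNR alone held when each of the 12 libraries was left out in turn.

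These changes altered the make-up of the family. RELA accounted for 50.5% ± 1.26 (SD, n = 3) of the summed subunit RPKM with DMSO and for 19.9% ± 1.24 with DNR, although its own level hardly moved. NFKB2 went from 5.41% ± 0.656 to 33.2% ± 1.98 and RELB from 8.42% ± 1.86 to 24.7% ± 0.579. The summed RPKM of the 5 subunits was 15.9 ± 0.156 with DMSO and 38.0 ± 1.5 with DNR. For the 5 IκB genes it was 21.6 ± 0.473 and 87.6 ± 12.1, so that the ratio of IκB to subunit transcripts went from 1.36 ± 0.0423 to 2.31 ± 0.364. These are sums of transcripts and not of proteins, and with 3 libraries per group they were not tested.

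**Figure D3:**
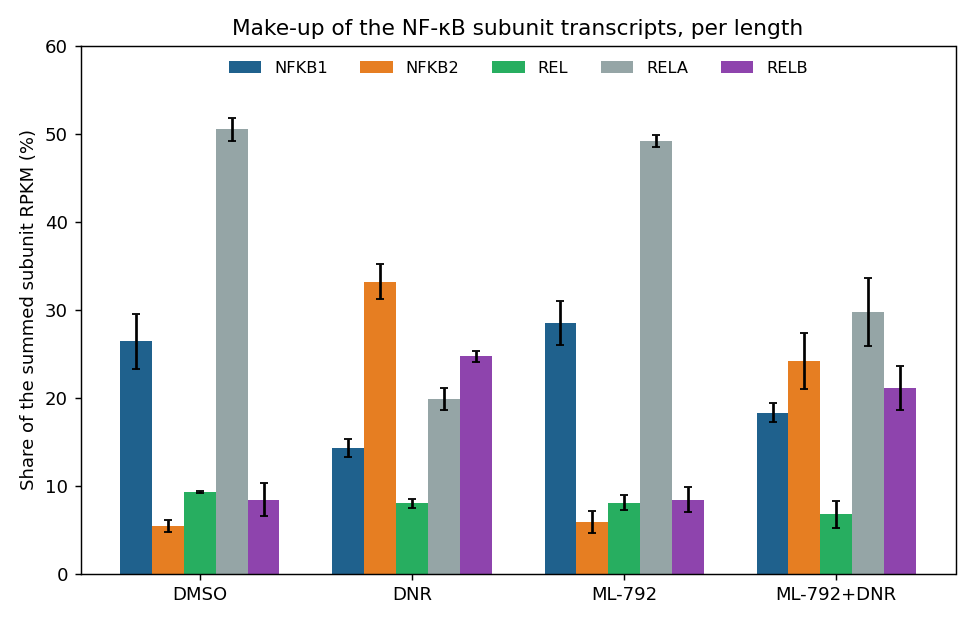
Share of each subunit in the summed RPKM of the 5 subunits (bars, mean of 3 libraries; whiskers, SD) in the 4 groups. RELA is the tallest bar with DMSO (50.5%) and with ML-792 (49.2%), NFKB2 with DNR (33.2%), and with ML-792+DNR RELA (29.7%) and NFKB2 (24.2%) overlap within their SD.

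ML-792 alone gave no call in the family, which with 3 libraries per group does not show that nothing changed. None of the 10 members was called by edgeR, DESeq2 or limma voom, at 2-fold or at any fold, while 2 (BCL3 and NFKBIZ) had an unadjusted edgeR p under 0.05. Over all tested genes 0.0803% were called at 2-fold and 0.241% at any fold. The share of all genes at that unadjusted p is not given here. NFKB2 had 3.70, 5.52 and 5.77 CPM, which overlapped the DMSO libraries, and its 95% interval against DMSO ran from 0.786- to 1.37-fold. For RELB the interval was 0.723- to 1.28-fold, for NFKBIA 0.932- to 1.47-fold and for RELA 0.842- to 1.04-fold. For REL it was 0.686- to 1.01-fold, and the ML-792 libraries (19.7 to 23.3 CPM) all lay below the DMSO libraries (25.0 to 25.6 CPM). NFKBIZ had 2.71, 1.67 and 2.24 CPM, all below the DMSO range, with a log2 change of −0.47 ± 0.2 (edgeR adjusted p = 0.86). BCL3 had 2, 1 and 4 reads in the ML-792 libraries against 1 in all DMSO libraries, a ratio of 7.81 with a counting interval of 1.00 to 352.

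When DNR was given together with ML-792, the rise was still present for most members but its size differed between them. Against DMSO, 6 members were called higher at 2-fold (NFKB2, RELB, NFKBIA, NFKBIE, BCL3 and NFKBIZ) beside 3.93% of all genes, and 7 at any fold, with NFKBIB, beside 17% of all genes. REL was no longer among them, at a log2 change of 0.18 ± 0.13 against DMSO (edgeR adjusted p = 0.289). It passed at any fold when ML-792+DNR replicate 1 was left out. Against ML-792 alone 6 were called too, by name those just given, beside 3.68% of genes, and 8 at any fold, beside 16.3%. REL was among those 8 with a log2 change of 0.45 ± 0.131 (edgeR adjusted p = 0.0185), a call that was lost when 1 of 4 libraries was left out (ML-792 or ML-792+DNR, replicate 2 or 3). NFKB1, which rose at any fold with DNR alone, was called in neither comparison. Its log2 change was 0.12 ± 0.0942 against DMSO (edgeR adjusted p = 0.333) and 0.07 ± 0.0942 against ML-792 (edgeR adjusted p = 0.6). The comparisons share the ML-792+DNR libraries.

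The direct comparison of ML-792+DNR with DNR gives the effect of ML-792 in DNR-treated cells. It includes any shift that ML-792 makes without DNR, which the interaction further below takes into account. Of the members 2, NFKB2 and BCL3, were lower by at least 2-fold, beside 0.102% of all genes lower and 0.0949% higher, and none was higher. At any fold 5 were lower (NFKB2, REL, RELB, BCL3 and NFKBIE), beside 0.489% of all genes. The median log2 change of the 10 members was −0.47 and that of all genes 0.00155. The calls of this comparison rest on few libraries, as given below for each gene.

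NFKB2 had 35.4, 26.7 and 40.0 CPM with ML-792+DNR, all below the DNR libraries (63.7 to 77.3) and above every DMSO and ML-792 library. Its log2 change against DNR was −1.05 ± 0.163 (edgeR adjusted p = 0.0127). Without DNR replicate 1 the adjusted p was 0.0557, without DNR replicate 3 it was 0.0733 at a log2 change of −0.99, and without ML-792+DNR replicate 2 the change was −0.90, under 2-fold. With replicates 2 and 3 only, which leaves out the libraries with the higher mitochondrial share, the change was −1.08 with an adjusted p of 0.133. The size of the difference was thus as large without those libraries, and the call was not.

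BCL3 had 23, 33 and 46 reads (0.752, 0.791 and 1.58 CPM) with ML-792+DNR against 76, 129 and 114 with DNR, and the groups did not overlap. Its log2 change was −1.65 ± 0.337 (edgeR adjusted p = 0.04). This call was lost on leaving out any DMSO or DNR library, ML-792 replicate 2, or ML-792+DNR replicate 1 or 2, with adjusted p up to 0.173 and log2 changes from −1.875 to −1.475.

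REL had 22.04, 32.1 and 32.2 CPM with ML-792+DNR, replicate 1 standing apart within the range of DMSO and ML-792 libraries. That library also had the highest mitochondrial share, 6.37%, and the part of this in the REL value was not tested. The log2 change from DNR was −0.85 ± 0.129 (edgeR adjusted p = 0.0127), and it kept an adjusted p below 0.05 in 11 of the 12 fits with a library left out, the exception being DNR replicate 3 (0.062). REL also missed it with the groups compared only and with replicates 2 and 3 only (adjusted p up to 0.0719). RELB had 16.8, 12.7 and 18.4 CPM, well below the 27.1 to 30.0 of DNR, at a log2 change of −0.82 ± 0.173 (edgeR adjusted p = 0.0488). NFKBIE had 37.7, 37.1 and 43.9 CPM against 52.1 to 58.9, a log2 change of −0.49 ± 0.102 (edgeR adjusted p = 0.0453). Both of these lie near the threshold: RELB passed in 3 and NFKBIE in 2 of the 12 fits with a library left out.

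The remaining members differed less from DNR alone. NFKBIA had 106.7, 145.9 and 135.0 CPM with ML-792+DNR, overlapping the DNR libraries, with a log2 change of −0.30 ± 0.142 (edgeR adjusted p = 0.396; 95% interval 0.656- to 1-fold). NFKBIZ had 8.27, 9.76 and 10.0 CPM, at −0.45 ± 0.18 (edgeR adjusted p = 0.298). NFKBIB had 35.4, 38.4 and 39.0 CPM, at 0.02 ± 0.118 (edgeR adjusted p = 0.96), with an interval of 0.852- to 1.21-fold. NFKB1 had 74.1, 69.4 and 71.9 CPM, below the DNR libraries, at −0.24 ± 0.0941 (edgeR adjusted p = 0.291). RELA had 39.4, 42.9 and 38.7 CPM and a 95% interval of 0.881- to 1.09-fold.

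**Figure D4:**
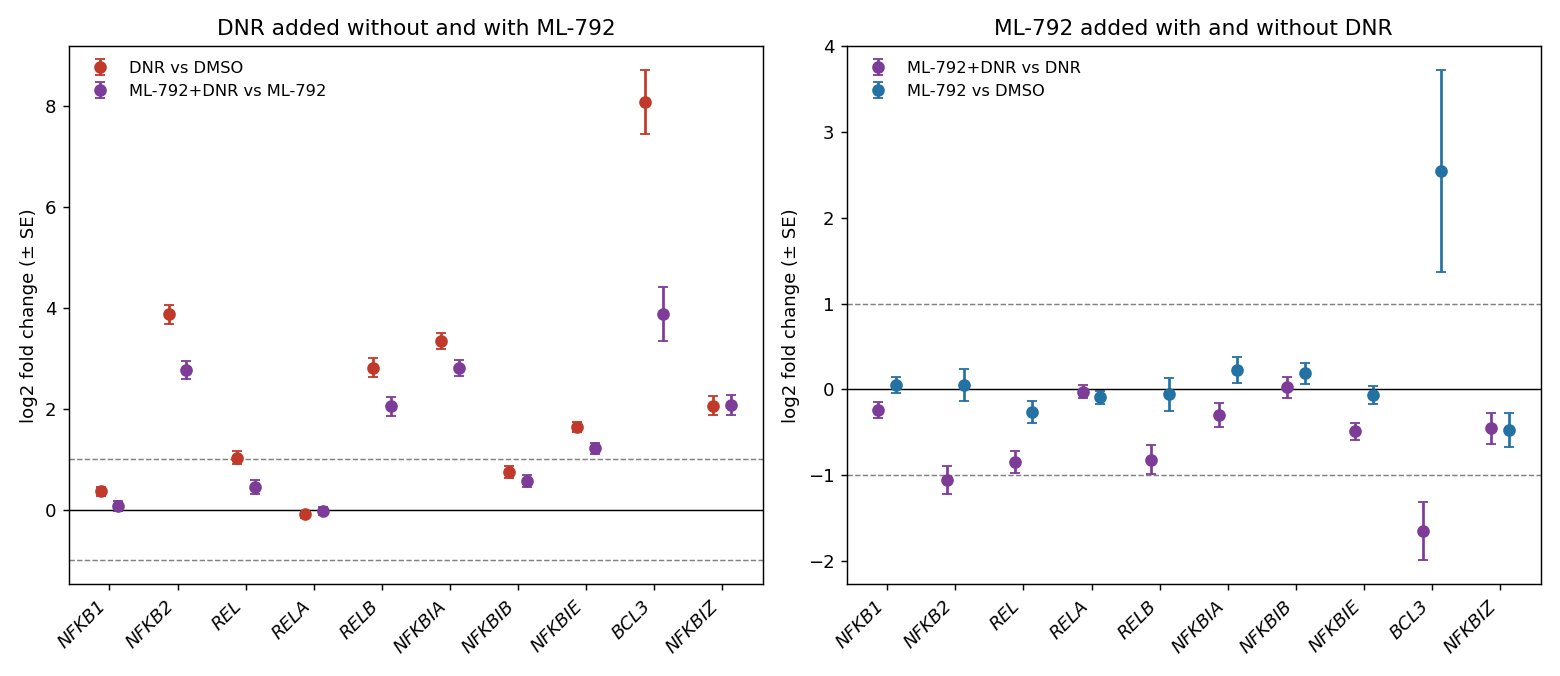
Fitted log2 fold change ± SE of each member, left for DNR added without (red) and with (purple) ML-792, right for ML-792 added with (purple) and without (blue) DNR, with dashed lines at 2-fold. On the right, NFKB2 (−1.05) and BCL3 (−1.65) lie below the lower line, REL (−0.85) and RELB (−0.82) just above it, and RELA (−0.03) and NFKBIB (0.02) at 0.

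Expressed as a share of the rise in CPM, the addition of DNR to ML-792-treated cells gave 44.2% of the rise seen without ML-792 for NFKB2 and 50.3% for RELB. The same measure was 59.8% for NFKBIE, 73.4% for NFKBIZ, 77.1% for NFKBIA and 83.3% for NFKBIB. For NFKB1 it was 18.1%, for REL 28.9% and for BCL3 30.1%. Taken replicate by replicate, it ran from 35.8% to 48.0% for NFKB2 and from 71.5% to 83.0% for NFKBIA. The range was −3.48% to 47.1% for NFKB1, −5.68% to 43.3% for REL, and 50.3% to 119% for NFKBIB. The ranges of NFKB2 and NFKBIA did not overlap, nor did those of NFKB2 and NFKBIB, or of REL and NFKBIA, and no test of these differences was made. The measure is a difference in CPM, so it also depends on the level with ML-792 alone. NFKBIZ rose 4.16-fold without ML-792 and 4.23-fold with it, although its share was 73.4%.

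Whether the DNR effect itself differed with ML-792 was tested as an interaction. The edgeR test called none of the 10 members and 0% of all genes, at 2-fold or at any fold, while 7 members had an unadjusted p under 0.05. The share of all genes at that unadjusted p is not given here, so whether 7 is unusual cannot be told. The estimate for NFKB2 was −1.11 ± 0.247 on the log2 scale (edgeR unadjusted p = 0.000572, adjusted p = 0.715). DESeq2 called NFKB2 alone among the members, with an adjusted p of 0.02, as did edgeR without a count filter (0.0038), and limma voom called none. Over all alternatives the adjusted p of this value ran from 0.0038 to 1. For RELB the estimate was −0.76 ± 0.258, for REL −0.59 ± 0.183 and for NFKBIZ 0.02 ± 0.263 (edgeR adjusted p = 0.999 for each).

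With ML-792+DNR the shares of NFKB2, RELB and RELA in the subunit transcripts lay between those with DMSO and with DNR. NFKB2 held 24.2% ± 3.15, RELB 21.1% ± 2.51 and RELA 29.7% ± 3.87 of the summed subunit RPKM, REL held 6.73% ± 1.51 and NFKB1 18.3% ± 1.08, and the sum was 25.1 ± 1.85. The 5 IκB genes summed to 71.5 ± 7.43, so that the ratio of IκB to subunit transcripts was 2.86 ± 0.389. With ML-792 alone the sums were 15.3 ± 0.317 and 23.3 ± 2.99 and the ratio was 1.52 ± 0.2. The order of the shares depends on the gene length used. Per length of the longest transcript, NFKB1 held 24.1%, NFKB2 23.4% and RELB 16.6% with ML-792+DNR.

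NFKBID, which encodes a further nuclear IκB protein and is no member of the list, rose with DNR from 5.71 ± 0.205 to 15.7 ± 1.61 CPM, a log2 change of 1.46 ± 0.15 (edgeR adjusted p = 1.45e-05). With ML-792+DNR it stood at 10.4 ± 2.0 CPM (edgeR adjusted p against DNR = 0.0827). It was the 1 of 3 other IκB-like genes called with DNR alone, beside 4.07% of all genes called higher. NFKBIL1 was called lower with ML-792+DNR against DMSO (log2 change −1.15, edgeR adjusted p = 0.00634). With DNR alone it was already lower, at less than 2-fold (−0.92, edgeR adjusted p = 0.0223). Between ML-792+DNR and DNR it was not called (edgeR adjusted p = 0.785).

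The tested genes of the IKK, IκB degradation, cofactor and DNA damage lists all moved by less than 2-fold with DNR. Over all genes, 14.3% were higher and 15.7% lower at any fold with DNR. The share of all genes at an unadjusted p under 0.05 is not given here. Whether the counts at that p are unusual therefore cannot be told. Of 17 IKK and upstream kinase genes, edgeR, DESeq2 and limma voom called none with DNR, although 6 had an unadjusted edgeR p under 0.05 and 2 were higher and 1 lower at any fold. None of 13 genes of the ubiquitin ligases and degradation of IκB was called by any of the 3 tools (7 with an unadjusted edgeR p under 0.05). At any fold 3 of them were higher and 3 lower. The 10 nuclear cofactors of NF-κB had no call either (3 with such a p), and 1 was higher and 2 lower at any fold. None of 7 genes of the route from DNA damage to NF-κB was called with DNR by these tools (1 with such a p). With ML-792+DNR against DMSO, ERC1, which encodes an IKK-associated scaffold protein, was called lower (log2 change −1.05, edgeR adjusted p = 5.28e-05). It was already lower with DNR alone, at less than 2-fold (log2 change −0.70, edgeR adjusted p = 0.00087). Between ML-792+DNR and DNR it was not called (−0.35, edgeR adjusted p = 0.245).

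Of 20 receptor and adaptor genes tested, 2 were called higher and 2 lower with DNR, beside 4.07% and 2.91% of all genes. BIRC3, which encodes the ubiquitin ligase cIAP2 and is itself an NF-κB target, rose from 1.77 to 14.5 CPM (log2 change 3.04, edgeR adjusted p = 2.08e-06). CD40, a receptor of the non-canonical pathway, rose from 0.0588 to 0.742 CPM, a level under 1 CPM. With 6 reads in the DMSO libraries, CD40 also passed the filter only through DNR-treated groups. The endotoxin receptor gene TLR4 fell from 37.2 to 12.5 CPM (log2 change −1.58, edgeR adjusted p = 0.000141). TNFRSF1A, at 111.1 CPM with DMSO, was the other gene called lower (log2 change −1.36, edgeR adjusted p = 1.29e-05). TRAF1 was the 1 gene of the list that edgeR called lower in ML-792+DNR against DNR, beside 0.102% of all genes. It had 1.02 and 2.39 CPM in these groups (edgeR adjusted p = 0.0453). In this comparison DESeq2 called 2 genes of the list and limma voom 1.

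Among 15 negative regulators tested, DNR raised 2 and lowered 1 at 2-fold, beside 4.07% and 2.91% of all genes. TNFAIP3, which encodes the ubiquitin-editing enzyme A20, went from 3.47 to 70.6 CPM (log2 change 4.33, edgeR adjusted p = 2.13e-08). With ML-792+DNR it stood at 41.4 CPM. CYLD, a deubiquitinase, rose from 17.3 to 73.5 CPM and stood at 40.2 CPM with ML-792+DNR. NLRC3 fell from 44.7 to 16.3 CPM. No negative regulator was called between ML-792+DNR and DNR at 2-fold by edgeR, DESeq2 or limma voom, and 4 had an unadjusted edgeR p under 0.05. The share of all genes at that unadjusted p is not given here. At any fold CYLD alone was lower (log2 change −0.87, edgeR adjusted p = 0.024), beside 0.489% of all genes.

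Downstream, 28 of 44 listed NF-κB target genes could be tested. With DNR 19 were called higher and 0 lower, beside 4.07% and 2.91% of all genes, and the median log2 change was 2.18. The filter kept genes with enough reads in any group and left out targets low in every group. CCL4 and CXCL10, with 0 and 6 reads in the DMSO libraries, thus passed only through DNR-treated groups. The count and the median therefore favour targets that rose. The largest changes belonged to the chemokine genes CCL4, with 0 reads in the DMSO libraries and 1.66 CPM with DNR, and CXCL10 (0.0432 and 9.34 CPM), and to the stress-response gene IER3 (0.723 and 43.6 CPM). Between ML-792+DNR and DNR, 6 targets were called lower and 1 higher, beside 0.102% and 0.0949% of all genes, with a median of −0.46. CCL4 (log2 change −3.44, edgeR adjusted p = 0.0153), CXCL10 (−2.67, 0.0127) and the adhesion molecule gene ICAM1 (−1.86, 0.04) fell most. SERPINB2 was the 1 called higher (log2 change 1.14, edgeR adjusted p = 0.0453). IER3 and SERPINB2 were called higher with ML-792 alone, beside 0.073% of all genes. They had 4.87 and 3.90 CPM with ML-792 against 0.723 and 1.35 CPM with DMSO. The targets were listed from general knowledge of the pathway, but with earlier results of these data known. These counts are therefore no independent evidence. Some of the targets belong to other pathways as well. CCL4 and CXCL3 have near-identical relatives that could share or lose reads in the counting.

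Among 9604 tested genes other than members that reached 5 CPM in a group, CXCL3 (Pearson r = 0.9941), PELI1 (0.9932), BTG2 (0.9903), F3 (0.9892) and MAFF (0.9881) had the log2 CPM profiles most like that of NFKB2 over the 12 libraries. Within the family, RELB followed NFKB2 most closely (r = 0.996), then NFKBIE (0.993), NFKBIA (0.97) and BCL3 (0.964). RELA, whose level hardly moved, had an r of −0.488. The libraries fall into 4 treatment groups, so these values mostly describe the group means, and no test was made.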

How the data were processed

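Polyadenylated RNA of HL-60 cells was read by single-end sequencing of 50 bases. The authors aligned reads to hg19 with TopHat2 2.1.1 and Bowtie2 2.3.5.1 and assigned them to genes with HTSeq 0.11.1, and these deposited raw counts were analysed here. Cufflinks 2.2.1, Picard and DESeq2 also appear in the submitters' processing notes. Whether counting used strand was not given in the sources used here. The deposited normalized table and the authors' own comparisons (fold changes and p-values) were not used. HTSeq's counter lines were left out. Genes took 65.3% to 67.4% of all records, 26.6% to 29.2% were not uniquely aligned, 3.05% to 3.77% lay outside genes and 2.26% to 2.83% were ambiguous.

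Genes passing filterByExpr (minimum count 10, total 15) were fitted with edgeR 4.0.16's quasi-likelihood test in R 4.3.3, with TMM factors (0.954 to 1.04), a group term and all 12 libraries. P-values were Benjamini-Hochberg adjusted over 13696 genes, and a call needed an adjusted p below 0.05 and a 2-fold change. The 6 comparisons were the 5 pairs of groups in the text and the interaction. The script was tested on simulated data. Gene lengths and positions come from GENCODE on GRCh37. Counting intervals (95%) cover counting error only. Members and gene lists were chosen with earlier results of these data known. All members were named, with up to 3 called genes of the largest change per list and comparison, and the 5 genes most correlated with NFKB2 (pseudocount 0.5 CPM). TNFRSF1A with DNR and SERPINB2 with ML-792+DNR against DNR were named in addition.

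Libraries of the same replicate number deviated together from their group means. Over genes, r was 0.0559 to 0.711 for the same number and −0.599 to 0.159 for different numbers, and each pair passed 0.1 in all comparisons but DNR vs DMSO and the interaction. No library was a copy of another (chi-square per gene 17.7 to 87.9 between replicates). Alternatives were DESeq2 1.42.0, limma 3.58.1 voom, other size factors and filters, the replicate block, the groups compared only, other fold minimums, each library left out, replicates 2 and 3 only, and another gene length.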

Additional observations from a re-analysis of the deposited data

How the results depend on the processing

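The direction and the side of the threshold of the DNR calls (7 members), of ML-792+DNR against DMSO (6) and against ML-792 (6) were the same under each alternative at the 2-fold minimum. The count for ML-792+DNR against DNR was 2 in the main analysis and with the replicate block, 1 with library size only, 1 with the groups compared only, 0 with replicates 2 and 3 only, 0 to 2 with a library left out, 4 at a fold of 1.5 and 5 with no fold minimum. The interaction count of 0 became 1 with DESeq2 and 1 without a count filter. The replicate block ended no member's call and added none. Over all genes it moved the calls of ML-792+DNR against DNR from 27 to 52 and of ML-792 against DMSO from 11 to 25.

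With a library left out, the sign of some small log2 changes turned. For ML-792 against DMSO they ran from −0.0654 to 0.232 for NFKB2, from −0.232 to 0.0786 for RELB and from −0.00271 to 0.160 for NFKB1. For the interaction they ran from −0.141 to 0.200 for NFKBIZ and from −0.264 to 0.00493 for NFKBIB. For ML-792+DNR against DNR they ran from −0.0733 to 0.00374 for RELA and from −0.00389 to 0.0665 for NFKBIB, and against ML-792 from −0.0777 to 0.000119 for RELA. None of these was called. The cause of these changes was not tested. For BCL3, the single DMSO read limits how closely its rise can be given.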
